A study of Mus musculus with 10 samples.

Results

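The 38 genes described here encode lysosomal hydrolases, lysosomal membrane proteins, the subunits of the vacuolar proton pump and the transcription factors Tfeb and Tfe3, and they were measured in macrophages sorted from mouse mammary tumours. They were chosen by gene symbol, with the cathepsins left out, and all 38 were present in each of the 10 library tables, which list 21938 genes. By role, 13 are soluble hydrolases and their activators, 8 are membrane proteins, 2 are transcription factors, 5 belong to the membrane sector V0 of the pump, 8 to its cytosolic sector V1, and 2 are pump accessory proteins. All animals were C57BL/6 mice that carried PyMT mammary tumour cells, which come from tumours of mice with the polyoma virus middle T oncogene, injected into 2 mammary glands and grown for 5 weeks. Control stands for wild-type mice that received wild-type tumour cells (3 libraries). Mertk KO stands for mice that lack Mertk (MerTK in the labels), a receptor by which macrophages take up apoptotic cells, in macrophages only, again with wild-type tumour cells (4 libraries). Ptdss1 knockdown stands for wild-type mice that received tumour cells with lowered Ptdss1, a phosphatidylserine synthase (3 libraries). The transgene that drives the knockout, the knockdown method, the age and sex of the mice and any pooling of animals were not stated in the sources used here. Nor do the labels tie each library to its own mouse, and the p-values therefore measure only the spread between libraries, part of which may be technical.

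Lysosomes break down what a macrophage engulfs. Their hydrolases need an acid lumen, which the vacuolar proton pump maintains: V1 hydrolyses ATP in the cytosol and V0 carries protons across the membrane. TFEB and TFE3 are transcription factors that can switch many lysosomal genes on together by binding E-box sequences in their promoters, and the nutrient sensor mTORC1 holds them in the cytosol in fed cells.

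The recovered reads per library ranged from 10292592 to 25815071. Ptdss1 knockdown replicate 1 stood apart: 6995 genes had at least 10 reads there, against 9066 in control replicate 2. Mertk KO replicates 3 and 4 had 9585 and 10205 such genes, and the remaining libraries had 10727 to 11523. The macrophage marker list had 12 of 12 genes with at least 10 reads in all 10 libraries, and its sum was 15447 CPM (recovered reads scaled to a common library total) in Ptdss1 knockdown replicate 1 and 21877 to 27734 in the other libraries. On the log2 scale used below, Mertk was at 9.64, 9.26 and 10.97 in control and at 10.63, 9.72, 9.24 and 8.95 in Mertk KO, and the groups overlapped. These values do not check the labels, since the deleted part of the gene is not known here and reads of the remaining exons still count for the gene; Ptdss1 was the target in tumour cells, which were not the cells sorted.

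RefSeq promoters of the set are shown because TFEB and TFE3 can act on lysosomal genes through E-box sequences in promoters. Windows on GRCm38.p6, from 250 bases before to 50 bases after the transcription start, were matched for 31 of the 38 genes. The E-box core CACGTG was found in 8 of them (25.8%), against 8.09% of the 27025 genes in the table. Among 92 other genes of the lysosomal pathway the share was 20.7%. All 8 also held TCACGTG on 1 of the strands, the core with the flanking T preferred by this factor family, which 4.29% of all genes hold. Lamp1 held 4 cores, which began 61, 45, 28 and 15 bases before the start. Atp6v0b, Mcoln1 and Gla held 2 each, and Atp6v0d1, Glb1, Gaa and Atp6v1a held 1 each. A match is a description of these letters and not a binding site. In the 4 windows below, written 5′ to 3′ along the gene's strand, capitals mark each core with its flanking T before it or A after it.
Lamp1 (chr8:13158911-13159210, plus strand): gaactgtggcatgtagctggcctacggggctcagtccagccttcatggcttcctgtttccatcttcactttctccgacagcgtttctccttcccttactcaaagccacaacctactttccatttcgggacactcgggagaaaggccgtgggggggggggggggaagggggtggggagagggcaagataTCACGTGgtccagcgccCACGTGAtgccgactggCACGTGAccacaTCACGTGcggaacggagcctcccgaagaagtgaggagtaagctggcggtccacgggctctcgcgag
Mcoln1 (chr8:3500269-3500568, plus strand): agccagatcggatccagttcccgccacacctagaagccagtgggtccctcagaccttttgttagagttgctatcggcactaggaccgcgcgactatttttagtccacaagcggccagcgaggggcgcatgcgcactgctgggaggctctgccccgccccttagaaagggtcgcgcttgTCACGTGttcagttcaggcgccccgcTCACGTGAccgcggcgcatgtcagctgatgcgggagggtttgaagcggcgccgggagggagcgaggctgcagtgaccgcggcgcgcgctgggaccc
Atp6v0b (chr4:117887280-117887579, minus strand): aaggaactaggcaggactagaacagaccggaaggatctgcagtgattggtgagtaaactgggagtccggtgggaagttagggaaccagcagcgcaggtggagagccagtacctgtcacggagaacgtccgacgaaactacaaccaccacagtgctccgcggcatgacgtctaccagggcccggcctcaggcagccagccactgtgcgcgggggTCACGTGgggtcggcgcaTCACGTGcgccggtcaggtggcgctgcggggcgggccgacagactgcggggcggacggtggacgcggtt
Atp6v0d1 (chr8:105566015-105566314, minus strand): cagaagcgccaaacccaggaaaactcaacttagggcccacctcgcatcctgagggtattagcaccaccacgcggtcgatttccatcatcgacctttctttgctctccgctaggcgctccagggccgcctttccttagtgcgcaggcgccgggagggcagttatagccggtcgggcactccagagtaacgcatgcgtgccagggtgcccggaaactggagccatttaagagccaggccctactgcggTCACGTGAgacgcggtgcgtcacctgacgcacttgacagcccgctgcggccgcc
In Lamp1, the glycoprotein that makes up much of the lysosomal membrane coat, the cores lie in 1 cluster just upstream of the start. In Mcoln1, a calcium channel of the lysosomal membrane, and in Atp6v0b, a proton-carrying V0 subunit, the paired cores likewise lie in the stretch just upstream. In Atp6v0d1, a V0 subunit that links the membrane sector to the rest of the pump, the core overlaps the start itself.

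**Figure D1:**
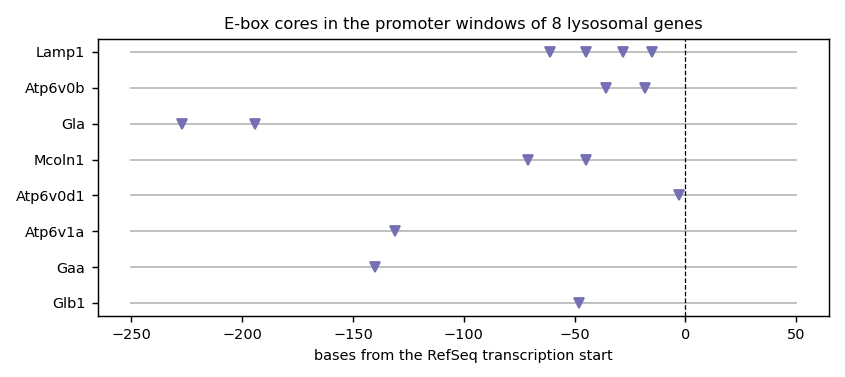
Position of each CACGTG core, in bases from the RefSeq transcription start (dashed line), in the promoter windows of the 8 genes that hold one; the grey line is the window searched. Lamp1 holds 4 cores between 61 and 15 bases upstream, and the cores of Gla, Gaa and Atp6v1a lie more than 100 bases upstream.

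All 38 genes passed the filter of at least 10 reads in 3 libraries that left 11564 genes to test, and all 38 lay above the median gene in RPKM, here the recovered reads scaled for transcript length and library total. Their median percentile was 92.9, and 22 of 38 lay above the 90th percentile. On that per-length scale, the highest means over the 10 libraries were 1761 for Cd63, a tetraspanin of late endosomes, and 1544 for Atp6v0c, the proton-binding ring subunit of V0. They were followed by 661 for Atp6v0b, 588 for Cd68, 575 for the V1 rotor-stalk subunit Atp6v1f and 561 for Grn, the precursor of the granulins. The lowest were 10.6 for Tfeb, 11.5 for Gaa, the acid glucosidase that degrades glycogen, 12.8 for the V0 subunit Atp6v0a1, 12.9 for its partner Atp6v0d2 and 12.98 for Tfe3. These means depend on the gene length used: over the union of annotated exons instead, a choice added after seeing the data, they were 530 for Cd63, 540 for Atp6v0c and 322 for Atp6v0b, and Cd68 was the highest of these 6 at 575. The 38 genes together took 1.35% to 2.02% of the reads of a library. The share was 1.84 ± 0.19% (SD, n = 4) in Mertk KO, 1.59 ± 0.25% (SD, n = 3) in Ptdss1 knockdown and 1.66 ± 0.24% (SD, n = 3) in control, and the ranges of the groups overlapped. The highest shares were 2.02% and 1.99% in Mertk KO replicates 4 and 3, 1.90% in control replicate 2 and 1.86% in Ptdss1 knockdown replicate 1. These were also the libraries with the fewest genes of at least 10 reads, and the other libraries lay between 1.35% and 1.70%. The part of detection in these shares was not tested.

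Levels below are log2(normalised reads + 1). The set varied little for these data: the median SD of its genes over the 10 libraries was 0.56 against 1.69 for all genes tested, and 35 of the 38 lay below that median, beside their high level. The steadiest were the V0 subunits Atp6v0c (SD 0.24, between 14.45 and 15.18) and Atp6v0b (SD 0.25, between 13.04 and 13.82) and the V1 stalk subunit Atp6v1e1 (SD 0.26, between 11.32 and 12.13). The most variable were Atp6v0d2 (SD 3.33), Gla (2.53), Tfe3 (2.28), Tfeb (1.40) and Mcoln1 (1.22). Ptdss1 knockdown replicate 1 was the highest library for 19 of 38 members, against 28.8% of all genes tested, and the lowest for 9, against 30.6%. Replicate 2 of that group was the lowest for 10. Gla, Tfe3 and Atp6v0d2 were below 10 reads in replicate 1, as were 40.1% of all genes tested.

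**Figure D2:**
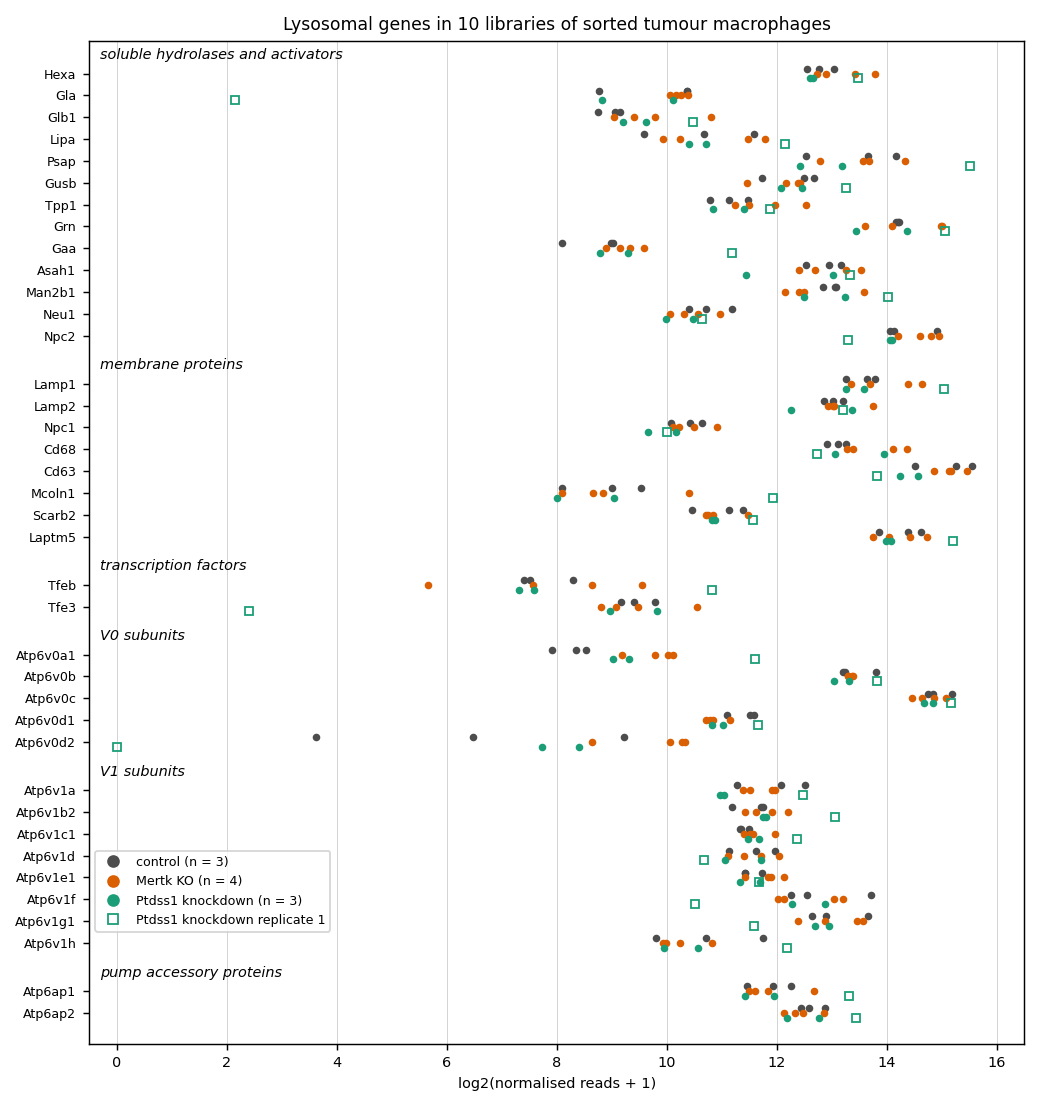
Level of each of the 38 genes, as log2(normalised reads + 1), in every library, grouped by role; colours give the group and open squares Ptdss1 knockdown replicate 1. Most genes span 1 to 3 units, the open squares often lie at an end of the range, and Atp6v0a1 is the gene whose 3 control libraries all lie below the other 7.

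Mertk KO was first compared with control, which asks how loss of the receptor on the macrophage goes with the lysosomal program. The largest fitted differences lay in alternative subunits of V0, while most of the set was close to control. Of the 38 genes, 25 had a positive and 13 a negative log2 fold change, with a median of 0.10, beside 50.9% positive and a median of 0.02 for all genes tested. None passed an adjusted p below 0.05 with limma (background 0.0173%), and none did with limma-voom. At an unadjusted p below 0.05 there was 1 member (background 2.06%), which was higher (background 1.14% higher and 0.917% lower). Without Ptdss1 knockdown replicate 1, which enters the shared spread, there were 2, Atp6v0a1 and Atp6v0d2, both higher, beside 3.13% higher and 2.26% lower of all genes tested. In 2 members the groups did not overlap (background 5.62%): in both, every Mertk KO library lay above every control library (background 3%), and in 0 every one lay below (background 2.62%). A share of 2 in 38 is near the background. Without control replicate 2 and Ptdss1 knockdown replicate 1, 27 members were positive and 11 negative, with a median of 0.17, beside 45.4% positive and a median of -0.08 for all genes tested. The median of the members was -0.02 without control replicate 1.

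Atp6v0a1 (chromosome 11, 101009452 to 101063719, plus strand), a form of the proton-channel subunit of V0, was 1 of these 2. Its level was 8.36, 7.92 and 8.54 in control, 9.19, 9.79, 10.02 and 10.12 in Mertk KO, and 11.61, 9.03 and 9.31 in Ptdss1 knockdown. All 3 control libraries lay below the 7 others. The mean was 9.78 ± 0.42 (SD, n = 4) in Mertk KO against 8.27 ± 0.32 (SD, n = 3) in control. The difference of 1.51 is the log2 fold change (SE 0.66, limma adjusted p = 1.0). It lay between 1.33 and 1.70 when any 1 library was left out, and without Ptdss1 knockdown replicate 1, which enters the shared estimate of the spread, its SE was 0.43 (limma adjusted p = 0.817). Among the other forms of this subunit, Tcirg1, the a3 form known from osteoclast and macrophage lysosomes, stood at 11.19, 13.08 and 11.31 in control and between 11.19 and 12.30 in Mertk KO.

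Atp6v0d2 (chromosome 4, 19876841 to 19922605, minus strand) encodes the form of the d subunit that is known from osteoclasts and macrophages, whereas Atp6v0d1 (chromosome 8, 105524465 to 105566047, minus strand) encodes the form made in most cells. Atp6v0d2 was at 3.63, 6.47 and 9.23 in control, from 14, 84 and 820 reads, and at 10.05, 8.64, 10.29 and 10.34 in Mertk KO, from 724, 486, 1540 and 1617 reads. In 3 of the 4 Mertk KO libraries it was above all control libraries, and replicate 2 lay within the control range. The log2 fold change was 3.38 (SE 1.78, limma adjusted p = 1.0), and it was 1.98 without control replicate 1 and 4.78 without control replicate 3. Atp6v0d1 was at 11.09, 11.51 and 11.59 in control and at 10.72, 11.16, 10.79 and 10.83 in Mertk KO, with 3 of 4 below all control libraries, a log2 difference of -0.52 (SE 0.42, limma adjusted p = 1.0).

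Per kb of transcript, the share of Atp6v0d2 in the sum of both d subunits was 0.335%, 1.90% and 11.1% in control, 28.8%, 10.05%, 31.1% and 31.3% in Mertk KO, and 0%, 6.92% and 9.44% in Ptdss1 knockdown. The mean was 25.3 ± 10.2% (SD, n = 4) in Mertk KO and 4.45 ± 5.82% (SD, n = 3) in control, and only Mertk KO replicate 2 overlapped with control. An exact two-sided permutation test over the libraries gave p = 0.0857, which is 0.129 when adjusted over 3 comparisons of this share (n = 4 and 3; the smallest p that 35 regroupings allow is 0.0286). The 0% of Ptdss1 knockdown replicate 1 rests on 0 reads, which allows a share of up to 0.0519% at a limit of 3 reads, for counting error only. The osteoclast marker list summed to 387 to 863 CPM in control, 478 to 876 in Mertk KO and 378 to 654 in Ptdss1 knockdown, mostly from Acp5, which macrophages also express, in all libraries but Ptdss1 knockdown replicate 1. In that list 6 of 8 markers reached 10 reads in some library, and Calcr and Oscar were at 0 in all 10. The sums do not show single markers. Of the 6 tested, 4 were higher and 2 lower in Mertk KO than in control, with log2 fold changes from -4.92 to 3.33. At an unadjusted limma p below 0.05 there were 0 higher and 2 lower (background 1.14% and 0.917%). Against Ptdss1 knockdown 2 were higher and 4 lower, from -3.23 to 5.02. The part of this list in the result was not tested.

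**Figure D3:**
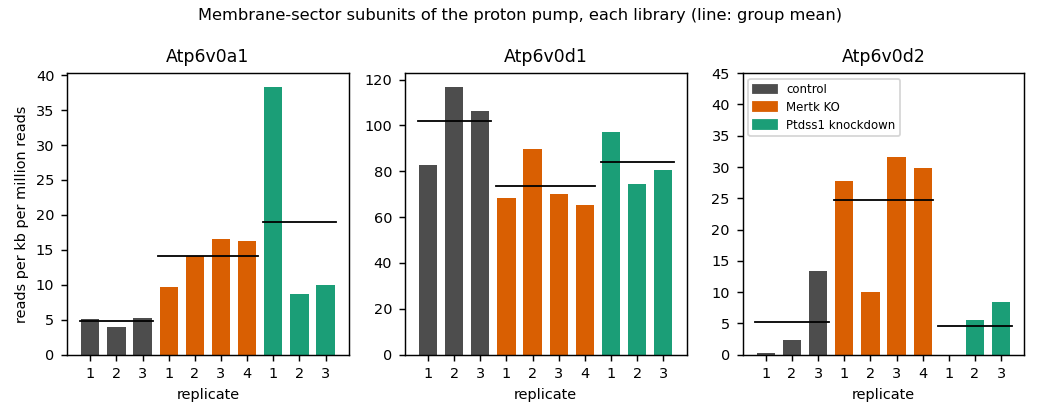
RPKM of Atp6v0a1, Atp6v0d1 and Atp6v0d2 in each library (bars, by replicate number) with the group means (lines). Atp6v0a1 is lowest in the 3 control libraries, and Atp6v0d2 is near 0 in control replicate 1 and at 0 in Ptdss1 knockdown replicate 1.

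The other subunits of the pump lay close to control. Over all 15 genes of the pump, 7 had a positive and 8 a negative fold change, with a median of 0.00, and their summed share of reads was 0.543 ± 0.029% (SD, n = 4) in Mertk KO against 0.558 ± 0.067% (SD, n = 3) in control. The V1 sector had 4 positive and 4 negative values, from -0.51 for the regulatory subunit Atp6v1h to 0.29 for Atp6v1e1. The nucleotide-binding subunits Atp6v1a and Atp6v1b2 had values of -0.26 and 0.24. Atp6v1c1, Atp6v1d, Atp6v1f and Atp6v1g1, which form the stalks and the rotor, lay between -0.24 and 0.22. Atp6v0b, Atp6v0c and the accessory proteins Atp6ap1 and Atp6ap2, which help to assemble V0, lay between -0.18 and 0.02.

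Among the membrane proteins, Cd68 (chromosome 11, 69664213 to 69666153, minus strand), the macrophage glycoprotein macrosialin, was the other member without overlap. It was at 13.11, 12.91 and 13.25 in control, at 13.39, 13.27, 14.11 and 14.37 in Mertk KO and at 12.74, 13.05 and 13.95 in Ptdss1 knockdown. Mertk KO replicate 2 lay just above the highest control library, and replicates 3 and 4 lay well above it. The log2 fold change was 0.69 (SE 0.41, limma adjusted p = 1.0). Lamp1 was at 13.26, 13.79 and 13.64 in control and at 13.69, 13.35, 14.38 and 14.63 in Mertk KO, with 2 of 4 above all control libraries and a log2 difference of 0.45 (SE 0.45, limma adjusted p = 1.0). The other 6 lay between -0.06 and 0.15. They are Lamp2, needed for fusion with autophagosomes, the cholesterol exporter Npc1, Cd63, Mcoln1, Scarb2, which carries glucocerebrosidase to lysosomes, and Laptm5, a lysosomal transmembrane protein of blood cells.

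Of the 13 hydrolases and activators, 10 had a positive fold change, with a median of 0.24, none passed the test, and none was without overlap. Their sums were 5525, 5405, 6967 and 7916 CPM in Mertk KO replicates 1 to 4, and 4866, 6250 and 5268 in control. Mertk KO replicates 1 and 2 thus lay within the control range, and replicates 3 and 4, which had fewer detected genes, lay above it. Glb1, the beta-galactosidase, was at 9.07, 9.14 and 8.76 in control and at 9.05, 9.41, 9.78 and 10.81 in Mertk KO, so that 3 of 4 libraries were above all control libraries. Its log2 fold change was 0.77 (SE 0.59, limma adjusted p = 1.0). Tpp1, a peptidase that removes tripeptides from proteins, was at 10.78, 11.47 and 11.14 in control and at 11.49, 11.24, 11.96 and 12.52 in Mertk KO, also with 3 of 4 above, and its log2 fold change was 0.68 (SE 0.45, limma adjusted p = 1.0). Gaa had 0.54. Hexa, the alpha subunit of beta-hexosaminidase, had 0.42, and the alpha-galactosidase Gla had 0.38. The other values were 0.27 for Npc2, which passes cholesterol to Npc1, 0.24 for the acid lipase Lipa, 0.23 for Grn, 0.14 for the saposin precursor Psap and 0.08 for the acid ceramidase Asah1. Values were negative for the alpha-mannosidase Man2b1 (-0.33), the sialidase Neu1 (-0.29) and the beta-glucuronidase Gusb (-0.20). Grn shows how the spread differed: its 3 control libraries lay between 14.16 and 14.21, and the Mertk KO libraries between 13.60 and 15.00, on both sides of them.

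The libraries of the groups overlapped for both transcription factors. Tfeb was at 7.40, 8.30 and 7.52 in control and at 8.65, 7.57, 9.56 and 5.66 in Mertk KO, where it had both the highest and the lowest value of these 7 libraries, and the log2 fold change was 0.12 (SE 1.17, limma adjusted p = 1.0). Tfe3 was at 9.40, 9.78 and 9.16 in control and at 8.80, 9.08, 10.55 and 9.47 in Mertk KO, with a log2 fold change of 0.03 and an SE of 1.28 (limma adjusted p = 1.0). The 8 genes with an E-box had a median log2 fold change of 0.25 with 5 of 8 positive, and the 23 matched genes without it 0.05 with 15 of 23 positive. In the comparisons that follow, these medians were 0.18 and 0.13 for Ptdss1 knockdown against control, and -0.03 and 0.11 for Mertk KO against Ptdss1 knockdown. Without Ptdss1 knockdown replicate 1 they turned to -0.30 and -0.17, and to 0.41 and 0.28.

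Among marker lists of other cells, the sums of 2 did not overlap between Mertk KO and control, tumour epithelium and natural killer. The fibroblast sums overlapped, at 1.23 to 3.59 CPM in control and 0.097 to 61.8 in Mertk KO. So did those of endothelium (46.5 to 72.6 and 46.5 to 89.4) and T cells (0.137 to 29.6 and 0.891 to 15.8). The tumour epithelium list summed to 21.2 to 31.6 CPM in control and to 64.3 to 159.5 in Mertk KO, and 8 of its 12 markers reached 10 reads in some library. Cdh1 gave most of these reads except in Mertk KO replicate 4, where Krt8 and Krt18 did. Epcam was at 0 in all 7 libraries and Cldn4 in all 10. Of the 5 markers of this list that were tested, 3 were higher and 2 lower in Mertk KO, with log2 fold changes from -1.21 to 2.56. The natural killer list summed to 93.6 to 209.9 in control and to 14.5 to 50.9 in Mertk KO, with 5 of 7 markers reaching 10 reads in some library and Ncr1 at 0 in all 7. In Ptdss1 knockdown the tumour epithelium and natural killer lists summed to 0.256 to 61.0 and to 61.3 to 144.8. Their part in the differences above and below was not tested. In bulk libraries fewer cells of a type and less RNA per cell cannot be told apart.

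**Figure D4:**
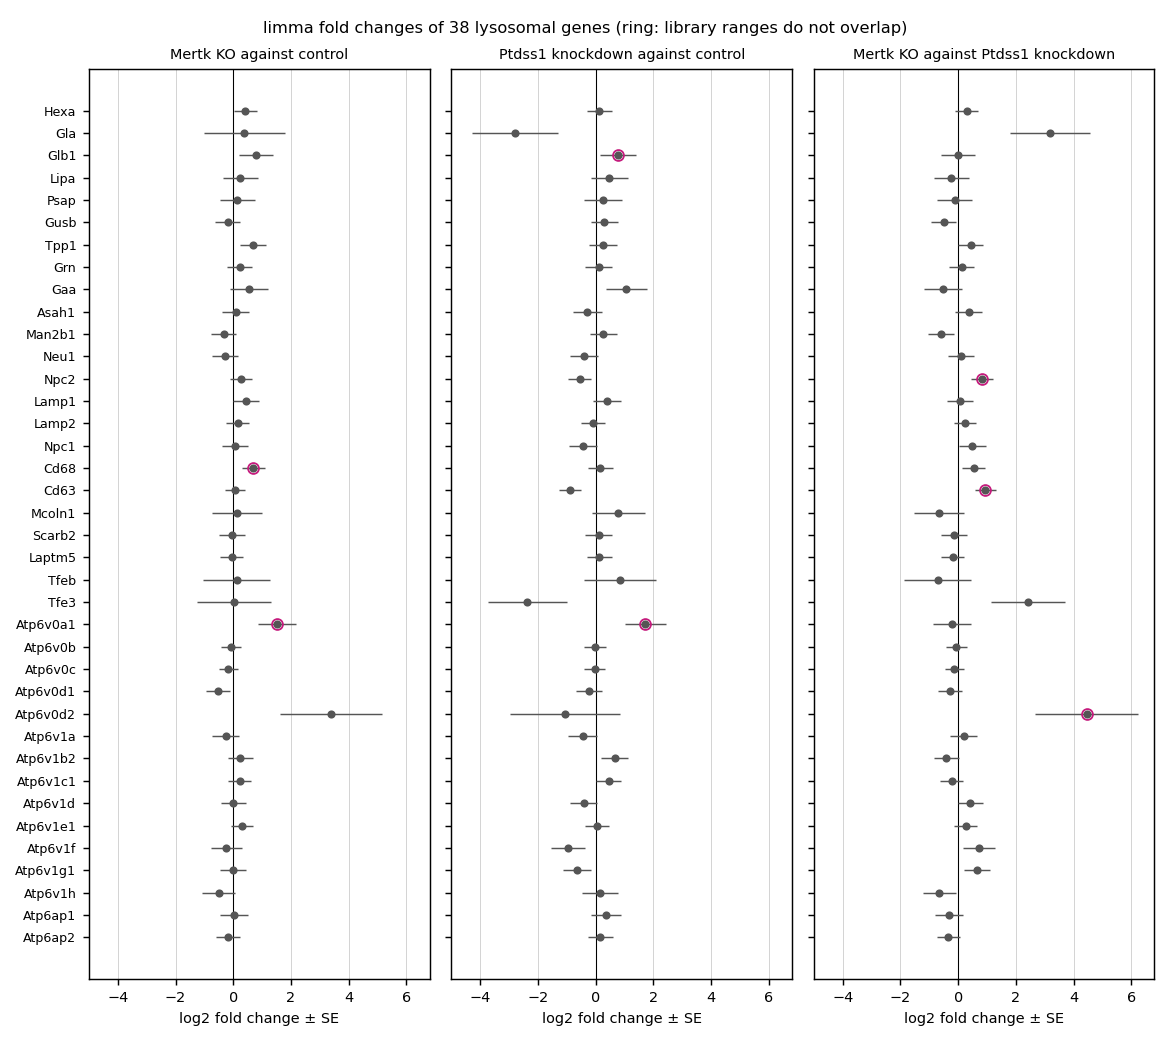
limma log2 fold changes (points) with their SE (bars) for the 38 genes in the 3 comparisons; rings mark genes whose libraries do not overlap between the groups. Most points lie within 1 unit of 0, and the widest bars belong to Atp6v0d2, Gla, Tfe3 and Tfeb.

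Ptdss1 knockdown was then compared with the same 3 control libraries, to ask how lowering the synthase in tumour cells goes with these genes in the macrophage. With all libraries 22 of 38 genes had a positive and 16 a negative log2 fold change, with a median of 0.11 beside 48% positive and a median of -0.05 for all genes tested. Without Ptdss1 knockdown replicate 1 the split turned to 7 positive and 31 negative, with a median of -0.19, beside 56.5% positive and a median of 0.12 for all genes tested. With control replicate 2 left out as well, 12 were positive and 26 negative, and the median was -0.05. In that fit 51.5% of all genes tested were positive, with a median of 0.02. By role, 9 of 13 hydrolases, 5 of 8 membrane proteins and 7 of 15 pump genes were positive with all libraries, and 2, 1 and 4 without replicate 1. Scaling by upper-quartile factors, which moved the median of all genes by -0.18, gave 14 positive and 24 negative. None passed with limma in any of these fits (background 0%), or with limma-voom over all libraries. With all libraries, at an unadjusted p below 0.05, there was 1 member in each direction (background 2.9%, with 1.6% higher and 1.3% lower). Without replicate 1 there were 0 higher and 1 lower, Atp6v1a, beside 0.979% and 0.416% of all genes tested.

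**Figure D5:**
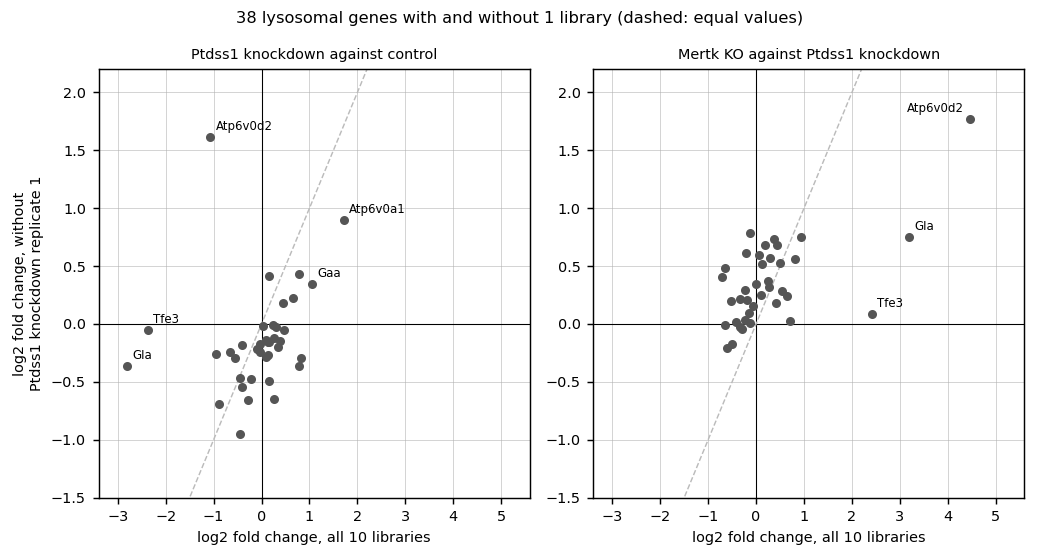
Log2 fold change of the 38 genes with all 10 libraries (horizontal axis) and without Ptdss1 knockdown replicate 1 (vertical axis), for the comparisons that use this library; the axes have different scales and the dashed line marks equal values. In the first panel 31 of 38 genes lie below 0 on the vertical axis, and in the second 33 of 38 lie above 0.

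Every Ptdss1 knockdown library lay above every control library in 2 members (background 3.32%) and below in 0 (background 3.6%). They were Atp6v0a1 and Glb1. Atp6v0a1, whose levels are given above, had a log2 difference of 1.71 (SE 0.71, limma adjusted p = 0.841), and 0.90 without Ptdss1 knockdown replicate 1. Since both comparisons share the control libraries, its values against them are not separate observations. Glb1 was at 10.47, 9.62 and 9.21 in Ptdss1 knockdown against 8.76 to 9.14 in control, a log2 difference of 0.78 (SE 0.63, limma adjusted p = 0.841), and 0.43 without replicate 1. Its replicate 3 lay just above the highest control library.

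Cd63 (chromosome 10, 128900989 to 128912822, plus strand) was the member with the smallest p in the negative direction. It was at 13.82, 14.24 and 14.57 in Ptdss1 knockdown and at 14.51, 15.25 and 15.54 in control, so that 2 of 3 libraries were below all control libraries. The log2 fold change was -0.89 (SE 0.38, limma adjusted p = 0.841), and -0.69 without replicate 1. Npc2 was at 13.30, 14.05 and 14.09 against 14.12, 14.07 and 14.92, with a log2 difference of -0.55 (SE 0.40, limma adjusted p = 0.841) and -0.29 without replicate 1. Atp6v1f, at 10.51, 12.88 and 12.28 against 12.55, 12.26 and 13.71, had -0.95 (SE 0.58, limma adjusted p = 0.841) and -0.26 without replicate 1.

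A few of the widest differences came from replicate 1 alone. Gla was at 2.16 there, from 4 reads, and at 8.82 and 10.12 in replicates 2 and 3, against 8.77, 10.37 and 10.36 in control. Its log2 fold change of -2.80 (SE 1.49, limma adjusted p = 0.841) was -0.36 without replicate 1. Tfe3 was at 2.42, from 5 reads, and at 9.82 and 8.96, and its log2 fold change of -2.38 (SE 1.37, limma adjusted p = 0.841) was -0.05 without replicate 1. Tfeb was at 10.82, 7.32 and 7.59, and its 0.83 (SE 1.25, limma adjusted p = 0.902) was -0.29 without replicate 1. Atp6v0d2 was at 0 in replicate 1 and at 7.72 and 8.40 in the others, and its -1.07 (SE 1.90, limma adjusted p = 0.927) was 1.62 without replicate 1. In this library 1 of the related transcription factors thus lay far above and the other far below the remaining libraries.

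In the absence of replicate 1, Ptdss1 knockdown gave mostly negative values. Replicates 2 and 3 were both below all control libraries for Atp6v1a, the catalytic V1 subunit, at 10.97 and 11.04 against 11.28, 12.07 and 12.51, and for Atp6v0d1, at 10.83 and 11.02 against 11.09, 11.51 and 11.59. The log2 fold changes were -0.95 (SE 0.43, limma adjusted p = 1.0) and -0.47 (SE 0.39, limma adjusted p = 1.0), from 2 libraries. These were 2 of 38 members, and the same held for 6.11% of all genes tested. Replicates 2 and 3 were both above all control libraries in as many members, the 2 genes Atp6v0a1 and Glb1, beside 9.06% of all genes tested. Other negative values without replicate 1 were -0.66 for Asah1, -0.64 for Psap, -0.54 for Neu1 and -0.47 for Npc1, and the 7 positive ones were Atp6v0d2, Atp6v0a1, Glb1, Cd68 (0.41), Gaa (0.35), Atp6v1b2 (0.22) and Atp6v1c1 (0.18).

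The position of replicate 1 was also set against transcript length. Of the 9 members with a principal transcript under 2000 bases, replicate 1 was the highest library for 2 and the lowest for 4, beside 18.3% and 36.1% of all genes tested of that length. Of the 29 longer members it was the highest for 17 and the lowest for 5, beside 33.0% and 28.4% of all longer genes. The split at 2000 bases was chosen after seeing the data. Against the median of the other libraries it was higher by 3.24 for Tfeb, 3.10 for Mcoln1, 2.42 for Atp6v0a1, 2.17 for Gaa and 1.95 for Psap, and it differed by -2.05 for Atp6v1f and -1.31 for Atp6v1g1, which have transcripts of 703 and 1135 bases. The lowest differences were -8.64 for Atp6v0d2, -8.00 for Gla and -6.99 for Tfe3, whose transcripts have 2539, 3172 and 3277 bases. Over all genes tested, its median difference was -1.40 among the 2888 genes of shortest transcripts and -0.74 to -0.79 in the 3 longer classes of like size. The members' medians in the same classes, from the shortest, were -0.28 (8 genes), 1.13 (17), 0.48 (11) and 0.25 (2), so that they were not in the order of length. The part of length in these results was not tested.

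Mertk KO was last compared with Ptdss1 knockdown directly. With all libraries 19 of 38 members were higher and 19 lower in Mertk KO, with a median of 0.02, beside 54% higher and a median of 0.11 for all genes tested. Without Ptdss1 knockdown replicate 1, 33 were higher and 5 lower, with a median of 0.29, beside 43.4% higher and a median of -0.11 for all genes tested. Upper-quartile factors, which moved the median of all genes by 0.19, gave 26 higher and 12 lower. None passed with limma (background 0%) or limma-voom. At an unadjusted p below 0.05 there were 4 members, all higher (background 3.73%, with 2.18% higher and 1.55% lower). Without replicate 1 there were 0 in either direction, beside 1.05% of all genes tested in each. The groups did not overlap in 3 members (background 5.23%), which had every Mertk KO library above every Ptdss1 knockdown library (background 2.91%), and 0 had them below (background 2.32%).

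The 3 were Cd63, Npc2 and Atp6v0d2. Cd63 was at 15.12, 15.45, 14.87 and 15.17 in Mertk KO, above the 13.82 to 14.57 of Ptdss1 knockdown and within the range of control, with a log2 difference of 0.94 (SE 0.36, limma adjusted p = 0.805) and 0.75 without replicate 1. Npc2 (chromosome 12, 84754562 to 84773152, minus strand) was at 14.94, 14.80, 14.20 and 14.61, above the 13.30 to 14.09 of Ptdss1 knockdown, with a log2 difference of 0.82 (SE 0.37, limma adjusted p = 0.805) and 0.56 without replicate 1. In both genes the Mertk KO libraries overlapped with control. Atp6v0d2 had a log2 difference of 4.45 (SE 1.78, limma adjusted p = 0.805), which was 1.77 without replicate 1, and its 4 Mertk KO libraries stayed above the 2 that remained. Its share of the d subunits was 5.45 ± 4.89% (SD, n = 3) in Ptdss1 knockdown, and the exact two-sided permutation p against the 25.3% of Mertk KO was 0.0571, or 0.129 adjusted over the 3 comparisons. Without replicate 1 the share was 8.18 ± 1.78% (SD, n = 2) and the exact permutation p was 0.133, or 0.2 adjusted, where 15 regroupings allow no p below 0.0667.

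The fourth member was Gla (chromosome X, 134588149 to 134601125, minus strand), with a log2 difference of 3.18 (SE 1.39, limma adjusted p = 0.805) that was 0.75 without replicate 1. Tfe3 had 2.41 (SE 1.28, limma adjusted p = 0.805), and 0.08 without it. Without replicate 1, all 4 Mertk KO libraries lay above both remaining Ptdss1 knockdown libraries in 5 members, beside 5.94% of all genes tested. These members were Cd63, Npc2, Atp6v0d2, Hexa and Atp6v1a. In 0 members all 4 lay below, beside 6.7% of all genes tested. Hexa was at 12.72 to 13.78 against 12.60 and 12.67, a log2 difference of 0.57 (SE 0.39, limma adjusted p = 1.0). The 31 negative values against control and the 33 higher values in Mertk KO rest on the same 2 Ptdss1 knockdown libraries. The median over the members was -0.22 without Ptdss1 knockdown replicate 2.

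The other genes of the pathway, 111 by list, of which 103 were tested, gave no called gene in any comparison with limma. Of the 103, 4 would fall below the filter without the libraries of a particular group: Atp6v1g2, Atp6v1g3, Rragb and Rragd. They are kept in the sign counts and medians of the 103. In Mertk KO against control 54 of 103 were positive, with a median of 0.06, beside 50.9% and 0.02 for all genes tested. At an unadjusted p below 0.05 there were 2 in the positive and 1 in the negative direction (background 1.14% and 0.917%). They were Gpnmb, a lysosomal glycoprotein of lipid-laden macrophages, with 4.19 (SE 1.82), Slc17a5, the sialic acid exporter, with 3.88 (SE 1.59), and the nucleoside transporter Slc29a3 with -1.08 (SE 0.48), each at limma adjusted p = 1.0. Without Ptdss1 knockdown replicate 1 there were 5, with Dpp7, Cln3 and Pld3 besides the first pair, and 4, with Tmem192, Mfsd8 and Ids besides Slc29a3, where 3.13% and 2.26% of all genes tested were past that p. Slc17a5 had 0 reads in control replicate 2 and lay at 6.81 and 7.82 in the other control libraries, against 8.35 to 9.55 in Mertk KO. Gpnmb was at 2.91, 6.49 and 6.60 in control and at 11.17, 8.96, 7.50 and 10.47 in Mertk KO, all above control.

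In Ptdss1 knockdown against control 52 of these 103 were positive, with a median of 0.06, beside 48% and -0.05 for all genes tested. Without replicate 1, 45 were positive, with a median of -0.03, beside 56.5% and 0.12. The Rag GTPase Rraga with 3.75 and Laptm4b with -3.94, each at limma adjusted p = 0.841, had an unadjusted p below 0.05 (background 1.6% higher and 1.3% lower). Their differences of means were 2.67 and -1.40 without replicate 1, where 0 of the 103 were past that p in the positive and 1, Gga2, in the negative direction (0.979% and 0.416% of all genes tested). Rragd passed the filter on low reads only through its Ptdss1 knockdown libraries, and its values are given as a description. With all libraries it is left aside among the genes past an unadjusted p, but not in the sign counts and medians of the 103. This GTPase, which takes part in the control of TFEB by mTORC1, was at 0, 1.03 and 5.58 in control, from 0, 1 and 64 reads. It was at 3.06, 2.09, 0 and 0 in Mertk KO, from at most 5 reads, and at 9.48, 6.48 and 4.13 in Ptdss1 knockdown, from 824, 94 and 27 reads.

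In Mertk KO against Ptdss1 knockdown 53 of the 103 were higher, with a median of 0.02, beside 54% and 0.11 for all genes tested. Without replicate 1, 63 were higher, with a median of 0.06, beside 43.4% and -0.11. With all libraries 5 had an unadjusted p below 0.05 in that direction (background 2.18%) and, with Rragd left aside, 1 in the other (background 1.55%). Without replicate 1 there were 3, Dnase2a, Pla2g15 and Ostm1, and 1, the lysozyme Lyz1, beside 1.05% of all genes tested in each direction. The 5 were Gpnmb with 4.49, the sulfatase Galns with 3.26, Ostm1, the partner of a lysosomal chloride exchanger, with 2.91, the phospholipase Pla2g15 with 1.93 and Acp5 with 0.88, each at limma adjusted p = 0.805. Without replicate 1 their differences of means were 1.97, 1.19, 0.90, 1.05 and 0.77. Acp5, the tartrate-resistant acid phosphatase, was at 12.72, 12.68, 12.89 and 13.64 in Mertk KO, above the 11.87, 12.01 and 12.41 of Ptdss1 knockdown. The gene in the other direction was the sulfatase Arsb with -5.07 (limma adjusted p = 0.805), and -3.45 without replicate 1.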

How the data were processed

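RNA of sorted macrophages was copied with a SMART-Seq v4 kit, amplified by 16 PCR cycles and sequenced in single reads from ThruPLEX libraries, per the labels' protocols. These kits mark neither strand nor molecules, so reads are not independent molecules and overlapping genes cannot be told apart; how reads of near-identical copies were split is not stated. STAR, RSEM and mm10 are named, per the submitters' processing notes; no source used here gives versions, annotation or normalisation. The tables deposited by the authors, 1 per library, hold a log2 value for each gene, with a decimal comma and no stated unit. Undoing log2(value + 1) gave whole multiples of 1 step in each library, which returned whole reads within 0.01 of a read for 100% of values. These totals are the depths given.

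All 10 libraries entered 1 fit of limma-trend (limma 3.58.1, R 4.3.3) with robust moderation on the deposited log2 values, with group means as the only terms. The filter of 10 reads in 3 or more libraries passed 11564 genes. Tests were two-sided, adjusted by Benjamini-Hochberg over these genes, with a threshold of 0.05. No count model was run, because the deposited unit is a log scale; limma-voom on the recovered reads is an alternative. Fold changes include the pseudocount of 1 and understate those of low genes. Means are given with SDs over libraries. A limit of 3 reads was used for a count of 0. Levels per kb use the GENCODE M21 principal transcript, a choice made after seeing the data. Coordinates are those of GENCODE M21 on GRCm38, and promoters are RefSeq windows on GRCm38.p6 searched on both strands.

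The members, lists, tests and alternatives were chosen with earlier results of these data known. The genes given in full are those past the threshold, the 5 of smallest p in each comparison, those without overlap between groups, the d subunits, Tfeb, Tfe3, Lamp1 and Cd68. Of each pathway list up to 3 genes of smallest p are named; Acp5, members of small counts and genes counted without a library were named after their values were seen. The steadiest, most variable and extreme members were picked by value. Alternatives were other size factors, filters, a pseudocount of 8, limma-voom, no robust moderation, library weights, only the groups compared, a threshold of 0.1 and leaving out libraries. The fit was tested on simulated data.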

Additional observations from a re-analysis of the deposited data

Results flagged for a closer look

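Each of the 38 members was tested for a library far from the others within the 4 Mertk KO libraries, by the gap to the nearest library over the whole range. Chance alone marks about 1 in 20 such groups, and 2 of 38 were marked. Lamp2, a membrane protein needed for fusion of lysosomes with autophagosomes, was at 13.75 in Mertk KO replicate 4, while the next library was at 13.04 and the lowest at 12.93. Atp6v0d2, the d subunit of osteoclasts and macrophages, was at 8.64 in Mertk KO replicate 2, while the next library was at 10.05 and the highest at 10.34.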

How the results depend on the processing

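In every setting tried 0 members were called. Over all genes, 2 were called in Mertk KO against control, 25 with library weights, 1 without robust moderation, 0 with either stricter filter, no filter, total-count or upper-quartile scaling, and 0 to 4 with 1 library left out. Ptdss1 knockdown against control gave 0, and 2 with library weights. Mertk KO against Ptdss1 knockdown gave 0, 35 with library weights and 1 without both libraries of few detected genes, Ptdss1 knockdown replicate 1 and control replicate 2. The weights were lowest for Ptdss1 knockdown replicate 1, at 0.073, and control replicate 2, at 0.280. With 1 library left out, the median over the members ranged from -0.02 to 0.19 for Mertk KO against control, from -0.19 to 0.28 for Ptdss1 knockdown against control and from -0.22 to 0.29 for Mertk KO against Ptdss1 knockdown. No paired analysis was possible because the labels give no replicate numbers shared between groups.

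Over 12 genes and their alternatives, the sign of the fold change turned in 11, 13 and 22 of 261 values in these 3 comparisons; the cause was not tested. For Mertk KO against control, library weights gave 0.059 for Atp6v1f and -0.24 for Tfe3. Leaving out 1 library gave -0.53 to 0.20 for Atp6v1f, -0.24 to 0.27 for Cd63, -0.15 to 0.65 for Gla, -0.33 to 0.25 for Tfe3 and -0.45 to 0.85 for Tfeb. For Ptdss1 knockdown against control, library weights gave 2.37 for Atp6v0d2 and 0.24 for Gla, and upper-quartile factors gave -0.058 for Cd68. Without both libraries of few detected genes the values were 1.63 for Atp6v0d2, -0.033 for Lamp1, 0.11 for Tfe3 and -0.010 for Tfeb. Leaving out 1 library gave -2.58 to 1.62 for Atp6v0d2, -0.20 to 0.41 for Cd68, -0.15 to 0.74 for Lamp1, -0.29 to 1.46 for Tfeb and -0.0080 to 0.52 for Tpp1. For Mertk KO against Ptdss1 knockdown, library weights gave 0.36 for Atp6v0a1, -0.24 for Cd68, 0.086 for Glb1, -0.0013 for Tfe3 and 0.36 for Tfeb. Upper-quartile factors gave 0.017 for Atp6v0a1 and 0.21 for Glb1, limma-voom 0.12 and total-count scaling 0.083 for Glb1. Without both libraries of few detected genes the values were 0.61 for Atp6v0a1, 0.34 for Glb1 and 0.41 for Tfeb. Leaving out 1 library gave -0.68 to 0.61 for Atp6v0a1, -0.36 to 0.34 for Glb1, -0.29 to 0.60 for Lamp1 and -1.34 to 0.41 for Tfeb.

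Genes below about 10 reads in a library, such as Gla, Tfe3 and Atp6v0d2 in Ptdss1 knockdown replicate 1, carry few counts, and their differences were not measured precisely. Cd63, Atp6v0c and Atp6v0b had lower per-length levels over the union of exons, at 530, 540 and 322, an alternative chosen after seeing the data.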
